A study of Mus musculus with 4 samples.

Results

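The genes described here encode the dystrophin-associated complex of the muscle membrane, or, in the case of Utrn, a relative of dystrophin that can take its place. They are Dmd, Utrn, Dag1, Sgca, Sgcb, Sgcd, Dtna and Sspn, taken by symbol from the 51826 rows of a gene table, and all 8 had enough counts to be among the 16120 genes tested. Quadriceps RNA came from 4 sedentary male mice at about 20 weeks of age on a C57BL6/J background. The 2 WT mice carried an intact Mef2d gene, and the 2 Mef2dα2 Eko mice lacked its α2 exon, which CRISPR-Cas9 had removed from the germline and so from every tissue. Mef2d encodes a transcription factor, and the α2 exon is included in the isoform of striated muscle. Each mouse gave 1 polyA-selected library, and the comparison asks whether deletion of the α2 exon altered the transcripts of the complex in resting muscle.

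Dystrophin ties the actin cytoskeleton of the muscle fibre to dystroglycan in the membrane, and dystroglycan binds laminin in the basement membrane outside. Sarcoglycans and sarcospan form a unit in the membrane that steadies the dystroglycan link, while dystrobrevin and the syntrophins bind dystrophin on the inner face and hold signalling proteins there. Loss of dystrophin causes Duchenne muscular dystrophy, and loss of a sarcoglycan causes limb-girdle muscular dystrophy. Utrophin is built like dystrophin and in adult fibres is found mainly at the neuromuscular and myotendinous junctions.

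None of the 8 genes passed the test for a difference between Mef2dα2 Eko and WT quadriceps. The test was edgeR's quasi-likelihood test, with p-values adjusted over all tested genes by the Benjamini-Hochberg method, and it called 67 genes of 16120, or 0.416%, at an adjusted p below 0.05. All 8 differences were small, from -0.04 for Sgcb to 0.31 for Dmd on the log2 scale, where positive values are higher in Mef2dα2 Eko mice. In 6 of the 8 genes, all but Dag1 and Sgcb, both Mef2dα2 Eko mice lay above both WT mice, an order that 20.8% of all tested genes also had. In none of the 8 did both lie below, as in 23.0% of tested genes. At an unadjusted p below 0.05, 4 of the 8 were higher and 0 were lower, against 5.15% and 6.41% of tested genes. The median log2 fold change of the 8 genes was 0.20, and that of all tested genes was -0.01.

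Of the start-site windows RefSeq gives on GRCm38.p6, each holding 250 bases before a transcript start and 50 after it, 10 belong to 7 of the 8 genes (not Dtna). The transcript starts of the only Sgcd and Utrn windows lie 609644 and 7630 bases inside the gene as placed by GENCODE M21. The outermost starts of Sgcd and Utrn were thus not searched. The windows were searched on both strands for the consensus site of the MEF2 factors, for the CArG box bound by serum response factor, and for the E-box CANNTG, which myogenic factors such as MyoD bind. The Dmd window at the start of the muscle transcript was the only one of the 10 with a MEF2 match, the letters TTATATTTAG from 244 to 235 bases before the start, and the only one with a CArG box, CCTATTATGG from 98 to 89 bases before it. A MEF2 match stood in 3.19% of all 32851 windows and a CArG box in 1.63%, and 25 windows, or 0.076%, held both. This pair, which the Dmd window holds, was the only one counted, so its share is no test of Dmd. An E-box stood in 7 of the 10 windows and in 72.3% of all windows. The 250 bases before the Dmd start, chrX:82948620-82948869 on the plus strand, are shown because MEF2D is the factor altered in these mice. The 250 bases before the Sgca start, chr11:94976328-94976577 read on the minus strand, are shown beside them as a member with only E-boxes. Capitals mark the matches, which in the Dmd sequence are, in order, the MEF2 site, an E-box, the CArG box and an E-box, with none overlapping another. In the Sgca sequence they mark 1 E-box.
Dmd: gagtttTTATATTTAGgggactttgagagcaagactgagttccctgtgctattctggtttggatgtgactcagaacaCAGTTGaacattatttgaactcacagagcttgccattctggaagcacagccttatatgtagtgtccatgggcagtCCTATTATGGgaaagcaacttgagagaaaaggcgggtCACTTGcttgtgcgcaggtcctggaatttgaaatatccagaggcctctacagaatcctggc
Sgca: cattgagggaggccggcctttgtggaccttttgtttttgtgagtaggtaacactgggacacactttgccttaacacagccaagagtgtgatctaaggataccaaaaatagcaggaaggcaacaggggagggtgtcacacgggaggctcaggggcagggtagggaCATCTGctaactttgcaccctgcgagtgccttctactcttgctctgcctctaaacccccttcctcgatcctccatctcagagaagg
A match in these letters is a description, and binding was not measured in these libraries.

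Deletion of the exon is not visible in the gene-level count of Mef2d, which sums all its exons. Mef2d stood at 259 and 227 CPM in WT quadriceps against 252 and 241 CPM in Mef2dα2 Eko quadriceps, where CPM is the count scaled to library size after TMM normalization. Its log2 fold change was 0.02 ± 0.08 (SE), with an adjusted p of 0.960 by edgeR's quasi-likelihood test, so this count does not check the labels. The libraries held 72626757 to 85176059 counts, and 3 counts, taken as the least that can be told from 0, came to 0.0348 to 0.0419 CPM, which covers counting error only. The tissue markers were those of fast quadriceps, with the fast myosin Myh4 at 64359 to 69587 CPM and the slow myosin Myh7 at 113 to 339 CPM. The other fast myosins were lower in both Mef2dα2 Eko mice, though neither passed the test. Myh2 was at 1576 and 1709 CPM against 1264 and 1041 CPM, a log2 fold change of -0.51 (adjusted p = 0.161, edgeR), and Myh1 at 4967 and 3984 CPM against 3476 and 3121 CPM, one of -0.44 (adjusted p = 0.261). Their part in the values of the 8 genes was not tested. In whole muscle, fewer cells of a type and less RNA per cell cannot be told apart.

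Dmd, which encodes dystrophin, had the largest difference of the 8 genes. Its level was 127 and 133 CPM in WT quadriceps against 147 and 176 CPM in Mef2dα2 Eko quadriceps, from 9622 to 12656 counts a library. Both Mef2dα2 Eko mice were thus above both WT mice, and replicate 2 stood well above replicate 1. The means were 130.1 ± 4.60 CPM (SD, n = 2) and 161 ± 20.4 CPM (SD, n = 2). The fold change was 1.24, with a 95% interval of 1.06 to 1.45, an unadjusted p of 0.0145 and an adjusted p of 0.300 in edgeR's quasi-likelihood fit, which ranked it 778 of 16120 genes by p. Without Mef2dα2 Eko replicate 2 the log2 fold change of Dmd fell from 0.31 to 0.17, and after removal of the trend with transcript length it was 0.19. Dmd passed the threshold in 2 of 15 alternative analyses, with no filter on low counts (adjusted p of 0.00916 in edgeR, with 3.25% of genes called) and without Mef2dα2 Eko replicate 1 (0.0449, with 1.22% called). Dmd lies on the plus strand of X:82948870-85206141 (GRCm38, GENCODE M21), a gene of 79 exons in its principal transcript of 14.91 kb.

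Utrn, which encodes utrophin, was at 23.0 and 22.9 CPM in WT quadriceps against 23.3 and 30.5 CPM in Mef2dα2 Eko quadriceps. The WT mice and Mef2dα2 Eko replicate 1 were nearly alike, and the difference rested on Mef2dα2 Eko replicate 2. The log2 fold change was 0.23 ± 0.13 (SE), with an adjusted p of 0.543 in edgeR, and it was 0.02 without that mouse, 0.42 without Mef2dα2 Eko replicate 1 and 0.12 after the transcript-length correction. Utrn lies on the minus strand of 10:12382188-12869365, with 74 exons in a transcript of 12.38 kb. Utrn is also made by vessel and nerve cells. The sums of smooth muscle and Schwann cell markers were highest in Mef2dα2 Eko replicate 2, while the endothelial sum there was close to that of WT replicate 1. The summed level of 4 smooth muscle markers was 53.7 to 55.6 CPM in the WT mice, 54.8 CPM in Mef2dα2 Eko replicate 1 and 68.1 CPM in Mef2dα2 Eko replicate 2. The sum of 5 Schwann cell markers was 27.6 and 30.5 CPM in the WT mice against 33.5 and 41.5 CPM in the Mef2dα2 Eko mice. The sum of 4 endothelial markers was 147 and 130.5 CPM against 126 and 148 CPM. Of these markers, both Mef2dα2 Eko mice were above both WT mice in 4 of 5 Schwann cell genes, 1 of 4 smooth muscle genes and 0 of 4 endothelial genes, against 20.8% of all tested genes, and no marker was at 0. The part of these cells in the Utrn values was not tested.

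The ratio of Utrn to Dmd counts was 18.2% and 17.1% in WT quadriceps against 15.8% and 17.3% in Mef2dα2 Eko quadriceps. The genotypes overlapped, and the mean log2 ratio differed by -0.09 (exact two-sided permutation p = 0.667, where 2 mice against 2 can reach no p below 0.333). With each mouse left out, this difference ran from -0.16 to -0.02. The ratio is of counts and not of molecules, since the transcripts differ in length.

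**Figure D1:**
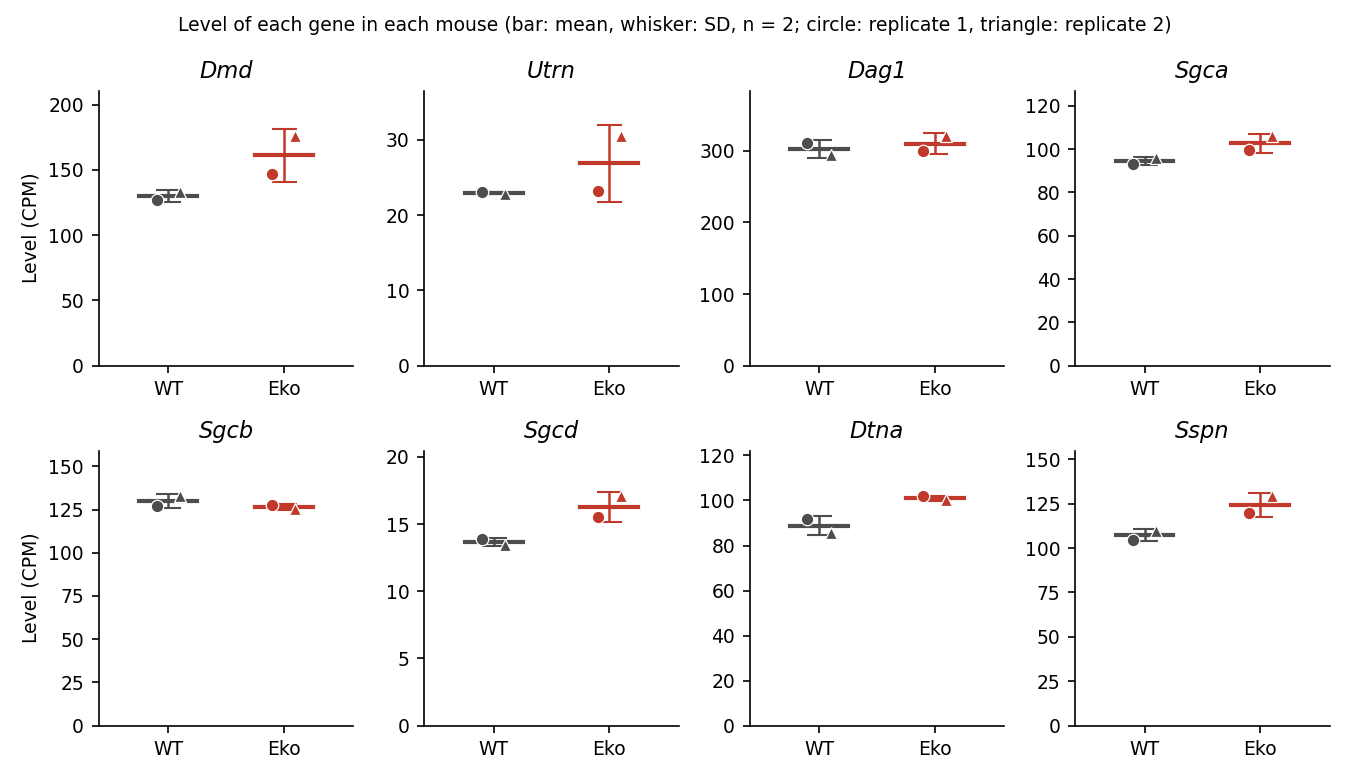
Level of each of the 8 genes in CPM (vertical axes from 0, a different range in each panel) in the WT (grey) and Mef2dα2 Eko (red) mice, with each point 1 mouse, the horizontal bar the mean and the whisker the SD of 2 mice. Both red points lie above both grey points in every panel except Dag1 and Sgcb, and relative to the mean the red whiskers are widest for Utrn (19.0%) and Dmd (12.6%).

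Dag1, the gene of dystroglycan, was at 311 and 294 CPM in WT quadriceps against 299.8 and 320.0 CPM in Mef2dα2 Eko quadriceps. The genotypes overlapped. Its log2 fold change was 0.04, with a 95% interval of -0.14 to 0.21 and an adjusted p of 0.890 in edgeR. It lies on the minus strand of 9:108204634-108263958 and has 4 exons in a transcript of 5.66 kb.

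The sarcoglycan genes did not all show the same order. Sgca, of α-sarcoglycan, was at 93.3 and 95.8 CPM in WT quadriceps against 99.6 and 106 CPM in Mef2dα2 Eko quadriceps, which did not overlap. Sgcb, of β-sarcoglycan, was at 127 and 133 CPM against 128 and 125 CPM, which overlapped. Sgcd, of δ-sarcoglycan, was at 13.9 and 13.5 CPM against 15.5 and 17.1 CPM, which did not overlap, from 1053 to 1337 counts a library. The log2 fold changes were 0.12 ± 0.07 for Sgca, -0.04 ± 0.06 for Sgcb and 0.25 ± 0.09 for Sgcd (SE), with adjusted p-values of 0.554, 0.868 and 0.345 in edgeR. With each mouse left out, the log2 fold change of Sgca ran from 0.07 to 0.18. The 95% intervals were -0.04 to 0.28 for Sgca and -0.19 to 0.12 for Sgcb, and that of Sgcd, 0.05 to 0.45, was the only one of the 3 to leave out 0. Whether the sarcoglycans differed from one another in response was not tested. Sgca lies on 11:94962791-94976327 (11 exons), Sgcb on 5:73632749-73647790 (6 exons) and Sgcd on 11:46896253-47988969 (8 exons), all on the minus strand.

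Sspn, of sarcospan, which joins the sarcoglycans in the membrane, was at 105 and 109.5 CPM in WT quadriceps against 119.5 and 129 CPM in Mef2dα2 Eko quadriceps. Both Mef2dα2 Eko mice were above both WT mice. The log2 fold change was 0.21 ± 0.07 (SE), with a 95% interval of 0.05 to 0.38 and an adjusted p of 0.332 in edgeR. Sspn lies on the plus strand of 6:145931641-145965223 and has 3 exons. An antisense gene, Sspnos, shares 69 exonic bases with it and had 0 to 3 counts.

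Dtna, of α-dystrobrevin on the inner face of the membrane, was at 91.7 and 85.7 CPM in WT quadriceps against 102 and 100.1 CPM in Mef2dα2 Eko quadriceps. The Mef2dα2 Eko mice lay close together and above both WT mice. The log2 fold change was 0.19 ± 0.07 (SE), with a 95% interval of 0.03 to 0.35 and an adjusted p of 0.369 in edgeR. Dtna lies on the plus strand of 18:23415135-23659715 and has 21 exons.

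**Figure D2:**
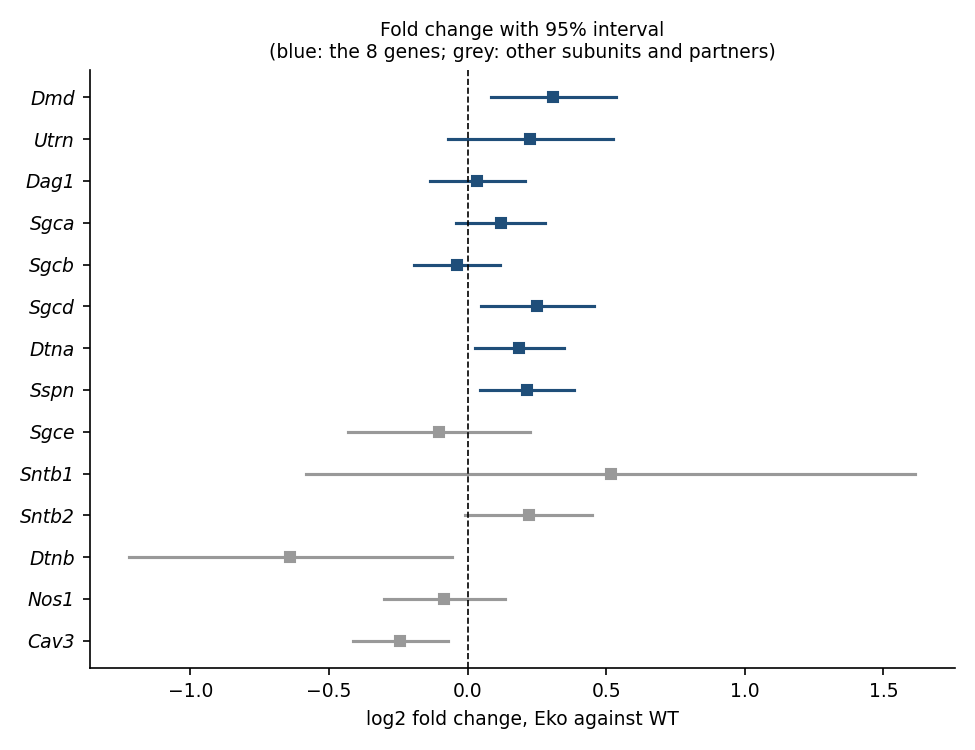
Log2 fold change of Mef2dα2 Eko against WT mice (horizontal axis) for the 8 genes (blue) and the 6 tested genes among other subunits and partners (grey), with squares the edgeR estimate and lines its 95% interval, not adjusted for the number of genes. The blue intervals of Dmd, Sgcd, Dtna and Sspn lie above 0 and the grey intervals of Dtnb and Cav3 below it, and no gene shown passed the adjusted threshold.

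Fold changes across all genes leaned with base composition and transcript length, with Spearman correlations of -0.22 with GC content and 0.19 with length over genes of these 4 libraries. GC content here is that of the longest transcript, which differs from the principal transcript in Sgcd and Sspn (38.7% against 47.1% and 45.8% against 46.9%). Of the 8 genes, 6 had a GC content under the median of tested genes, 49.9%, from 38.7% in Sgcd to 47.9% in Utrn. Dag1 and Sgca were above it at 52.8% and 56.7%. Genes within 1 percentage point of the GC content of Dmd, 41.5%, had a median log2 fold change of 0.07, and those near Sgcd one of 0.08. With the GC trend removed, the log2 fold change was 0.24 for Dmd, 0.17 for Sgcd, 0.18 for Sspn and 0.16 for Dtna. With the length trend removed, the values were 0.19 for Dmd, 0.28 for Sgcd, 0.19 for Sspn and 0.14 for Dtna. These 4 members thus kept positive values under both corrections, neither of which brought any of the 8 past the threshold. With the GC trend removed, Utrn, Sgca, Dag1 and Sgcb had 0.21, 0.19, 0.06 and -0.09. With the length trend removed, the same genes had 0.12, 0.17, -0.01 and -0.05.

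**Figure D3:**
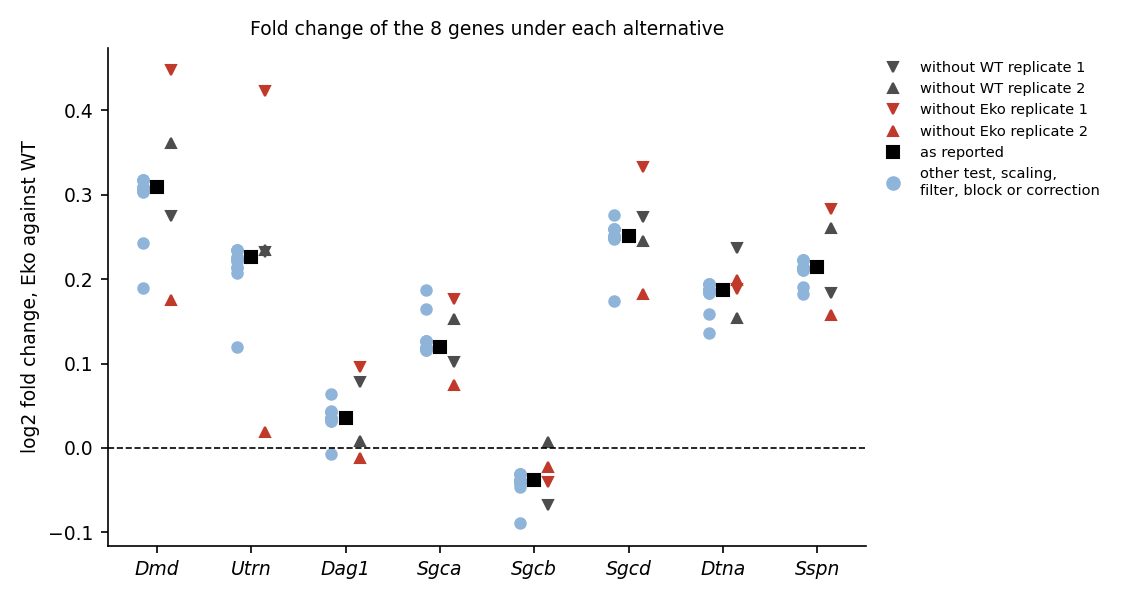
Log2 fold change of each of the 8 genes (vertical axis) as reported (black squares), with each mouse left out (triangles) and under the other tests, scalings, filters, the replicate block and the GC and length corrections (pale circles). Leaving out Mef2dα2 Eko replicate 2 lowered Dmd to 0.17 and Utrn to 0.02, while Sgcd, Dtna and Sspn lay between 0.14 and 0.33 in all 15 alternatives.

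Levels of different genes were compared as CPM per kilobase of the principal transcript. In the WT mice, Sgca (54.9) and Dag1 (53.4) were highest and their ranges overlapped. They were followed by Sgcb (34.3), Sspn (24.2) and Dtna (14.1), each apart from its neighbours over all 4 mice. Dmd (8.72) and Sgcd (8.45) overlapped, and Utrn, at 1.85 CPM per kb, was lowest, with Sgcd 4.56 times as high. The Mef2dα2 Eko mice had the same order, and so did both genotypes with the length of the longest transcript. That length differs from the principal one only in Sgcd and Sspn, so it could change little else. For Dtna the longest transcript stood in for the principal one. With the longest transcript, the level of Sgcd in the WT mice was 5.58 CPM per kb.

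Of the summed level per kilobase of Sgca, Sgcb and Sgcd, Sgca held 56.2% to 58.5% over the 4 mice, Sgcb 31.5% to 35.4% and Sgcd 8.42% to 10.05%. The share of Sgcd was 8.91% and 8.42% in WT quadriceps against 9.49% and 10.05% in Mef2dα2 Eko quadriceps. That of Sgcb was 34.9% and 35.4% against 33.4% and 31.5%, and that of Sgca 56.2% in both WT mice against 57.1% and 58.5%. The genotypes did not overlap for any of these shares, which sum to a fixed total, and with 2 mice against 2 no permutation test can pass 0.05.

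**Figure D4:**
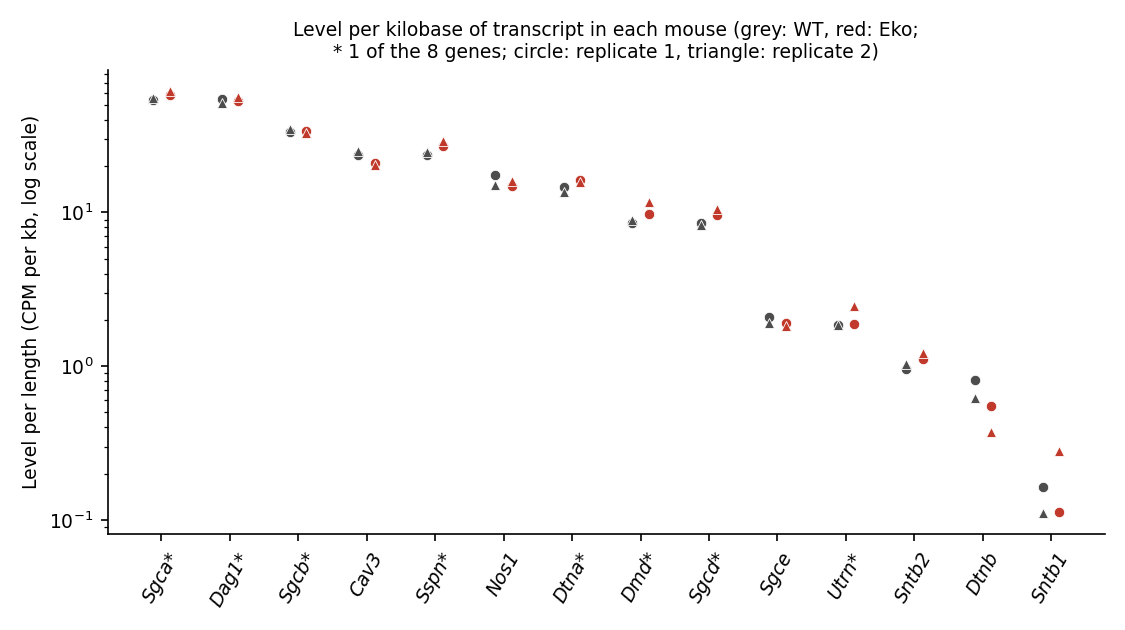
Level of the 8 genes (starred) and 6 partners in CPM per kb of transcript (vertical axis, log scale) in each WT (grey) and Mef2dα2 Eko (red) mouse. Sgca and Dag1 stand at 51.9 CPM per kb or more in every mouse and Utrn at 2.46 or less, and the order of the 8 genes is the same in both genotypes.

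The other subunits and partners of the complex described here are 9 genes, of which 6 were tested. None was called, and the median log2 fold change was -0.09. Both Mef2dα2 Eko mice were above both WT mice in 1 and below them in 3, against 20.8% and 23.0% of all tested genes. Cav3, of caveolin-3, the coat protein of muscle caveolae, was at 27.4 and 29.0 CPM against 24.1 and 23.5 CPM, a log2 fold change of -0.24 (adjusted p = 0.290, edgeR). Dtnb, of β-dystrobrevin, a form found mainly outside muscle, was at 3.005 and 2.30 CPM against 2.02 and 1.37 CPM, a log2 fold change of -0.64 (adjusted p = 0.399). Cav3 and Dtnb, both lower, were the 2 partners with an unadjusted p below 0.05. Of all tested genes, 6.41% were lower and 5.15% higher at that level. Sntb2, of β2-syntrophin, was the partner with higher values, at 9.58 and 10.3 CPM against 11.1 and 12.1 CPM, a log2 fold change of 0.22 (adjusted p = 0.449). Nos1, which encodes the neuronal nitric oxide synthase that the complex anchors, and Sntb1, of β1-syntrophin, overlapped between genotypes, with log2 fold changes of -0.08 and 0.52. Sgce, of ε-sarcoglycan, had -0.10. Sgcz was listed at 0 in all 4 libraries, Sntg1 had at most 1 count, and Sntg2 had 4 to 11 counts. Nos1 shares 268 exonic bases with Gm26995 on the other strand, which had 1 to 18 counts.

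Of 17 tested genes that build the sugar chain by which dystroglycan binds laminin, none was called, and the median log2 fold change was 0.01. At an unadjusted p below 0.05, 1 was higher and 0 lower, against 5.15% and 6.41% of all tested genes. Both Mef2dα2 Eko mice were above both WT mice in 6 and below them in 0, orders that 20.8% and 23.0% of all tested genes had. The range ran from -0.18 for B3galnt2 to 0.47 for Ispd, the genes of a sugar transferase and of the enzyme that makes the ribitol donor. Ispd was at 1.99 and 1.87 CPM in WT quadriceps against 2.59 and 2.74 CPM in Mef2dα2 Eko quadriceps, with an adjusted p of 0.358 in edgeR. Large2 had too few counts to be tested.

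Of 13 matrix genes, the laminin chains and other basement membrane parts that face dystroglycan, none was called, and both Mef2dα2 Eko mice were above both WT mice in 1 and below them in 6, orders that 20.8% and 23.0% of all tested genes had. At an unadjusted p below 0.05, 1 was higher and 5 were lower, against 5.15% and 6.41% of tested genes. The 5 lower genes were Col4a1, Col4a2, Bgn, Lamc1 and Hspg2, of which the last 4 are named with their values in view. Lamb2, of the laminin β2 chain, was at 82.6 and 76.4 CPM against 108 and 100.3 CPM, a log2 fold change of 0.39 (adjusted p = 0.130, edgeR). Col4a1, of a collagen IV chain, was at 60.7 and 59.8 CPM against 46.4 and 47.8 CPM, a log2 fold change of -0.36 (adjusted p = 0.118). Neither overlapped between the genotypes, and both passed the threshold under some other tests, with adjusted p-values of 0.00156 for Lamb2 and 0.00646 for Col4a1 in DESeq2, which called 1.97% of genes. Lama2, which encodes the laminin chain that dystroglycan binds in muscle, is given here although the naming rule did not pick it, a choice made with its values in view. It was at 27.5 and 24.1 CPM against 25.6 and 24.1 CPM and had an adjusted p of 0.868. Fibroblast markers, a source of collagen, summed to 301 and 314 CPM in WT quadriceps against 341 and 263 CPM in Mef2dα2 Eko quadriceps. Of these markers, 2 of 4 were lower in both Mef2dα2 Eko mice, against 23.0% of all tested genes, and none was at 0. Their part in the matrix values was not tested.

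Of 10 tested cytoskeletal genes under the membrane none was called, with a median log2 fold change of -0.06 and a range from -0.33 for Ank2, of the adaptor ankyrin-B, to 0.80 for Krt18, of a keratin. Krt18 was at only 0.132 to 0.419 CPM. Ank2 was at 62.6 and 45.3 CPM in WT quadriceps against 43.5 and 42.3 CPM in Mef2dα2 Eko quadriceps, so the distance came mostly from WT replicate 1. Krt8 had too few counts to be tested. Of 12 genes of the integrin link, the other route from laminin to actin, none was called, the median was -0.08, and values ran from -0.24 for Vcl, of vinculin, to 0.09 for Fermt2, of kindlin-2. Of 9 membrane repair genes none was called, the median was -0.01, and values ran from -0.16 for Anxa2, of annexin A2, to 0.24 for Ahnak, of a giant scaffold protein. Ahnak was at 442 and 433 CPM against 466 and 568 CPM, highest in Mef2dα2 Eko replicate 2. That mouse was also highest in Dmd, Utrn, Dag1, Sgca, Sgcd and Sspn. The summed level of the 8 genes was 1003 CPM there, against 887 to 934 CPM in the other mice.

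**Figure D5:**
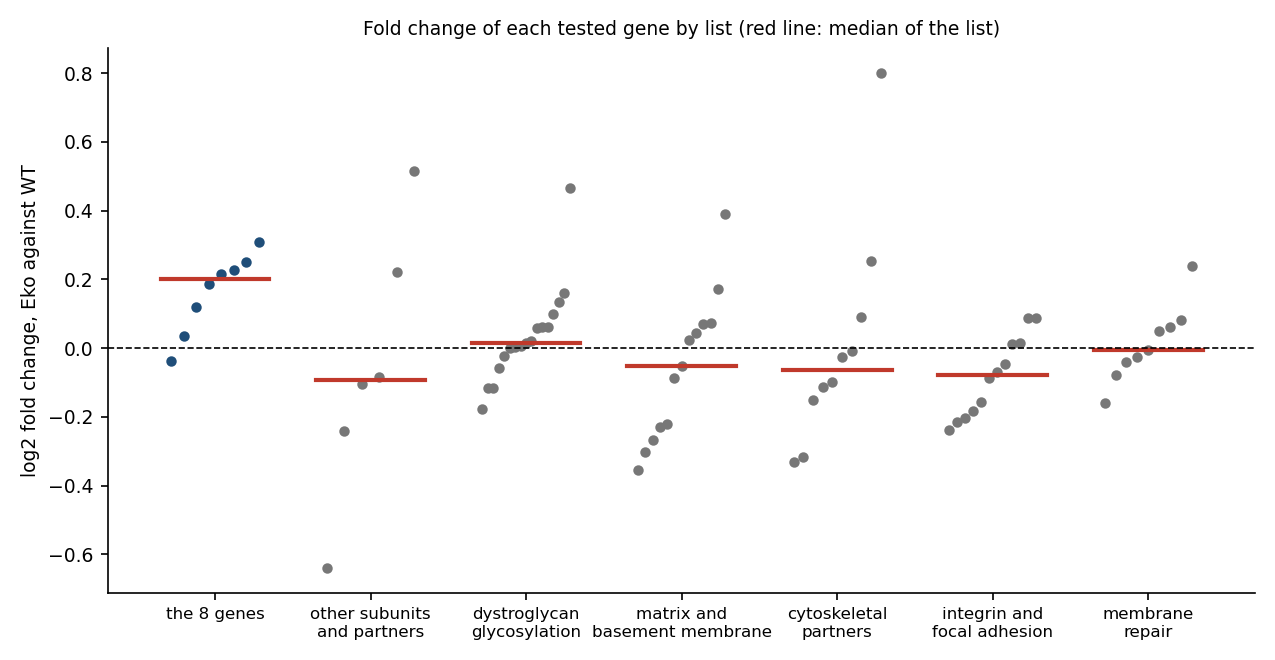
Log2 fold change of Mef2dα2 Eko against WT mice (vertical axis) for each tested gene of the complex and of 6 lists of related genes, with each point 1 gene and the red line the median of the list. The median was 0.20 for the 8 genes and between -0.09 and 0.01 for the 6 lists, and no gene shown passed the threshold.

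Genes that rise when fibres regenerate or are newly made did not separate the genotypes. All 6 markers of regenerating fibres and satellite cells overlapped, as did 9066 of all 16120 tested genes. Embryonic myosin Myh3, 1 of these markers, was at 2.08 and 1.55 CPM in WT quadriceps against 1.43 and 2.00 CPM in Mef2dα2 Eko quadriceps. Of 6 neuromuscular junction markers, where utrophin is concentrated, 1 was higher and 1 lower in both Mef2dα2 Eko mice, against 20.8% and 23.0% of all tested genes. The sum of these markers was 66.0 and 60.8 CPM against 52.8 and 65.9 CPM. Macrophage markers were low and summed to 17.3 and 14.1 CPM in WT quadriceps against 12.6 and 9.51 CPM in Mef2dα2 Eko quadriceps, with 3 of 4 below both WT mice in both Mef2dα2 Eko mice. The 4 adipocyte markers overlapped and summed to 31.6 and 13.8 CPM against 17.2 and 5.44 CPM. No marker of these types passed the test, and none was at 0 in any library. Their part in the values of the 8 genes was not tested.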

How the data were processed

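PolyA-selected RNA was sequenced from the quadriceps of 2 WT and 2 Mef2dα2 Eko male mice. The authors aligned the reads to mm10 (STAR 2.6.1a per the submitters' processing notes), and the deposited values are expected counts per gene from RSEM with an Ensembl annotation of GRCm38, not normalized. The kit keeps strand, but the strand setting for counting is not given in the sources used here. All deposited values were whole, so rounding changed none. RSEM shares reads that match several genes by a model. Library totals were 72626757 to 85176059 counts.

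Genotypes, taken from the sample labels, were compared in R 4.3.3 with edgeR 4.0.16 (quasi-likelihood test, TMM normalization, default filter on low counts, prior count 0.125), and Benjamini-Hochberg adjustment ran over 16120 genes with a threshold of 0.05. SEs were derived from each log2 fold change and its F statistic. The p-values rest on the spread between mice, 2 per genotype, with the variance of each gene drawn toward a trend over all genes. Positions and lengths came from GENCODE M21, which held 92.1% of the symbols, and start-site windows from RefSeq. The text names the 8 genes, Mef2d, the partners in the list (some are not reported here), and in each further list the genes called and those with the lowest and highest log2 fold change. The members and lists were chosen with earlier results of these data known. Alternatives included DESeq2 1.42.0, run also with independent filtering off, scaling by RLE or upper quartile, no filter, 1 CPM in 2 libraries, the likelihood ratio test, voom in limma 3.58.1, a replicate block and leaving out each mouse. The GC and length corrections, and the scalings used to count members above WT, were added after the data were seen. The tests were tested on simulated data.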

Additional observations from a re-analysis of the deposited data

How the results depend on the processing

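Across 15 alternatives, none of the 8 genes passed the threshold except Dmd, so the count of members called was 1 with no filter on low counts and 0 to 1 with each mouse left out. Dmd had a log2 fold change of 0.31 with no filter and 0.17 to 0.45 with each mouse left out. Dag1 and Sgcb, near 0, changed sign: Dag1 was -0.01 after the length correction and -0.01 to 0.10 with each mouse left out, and Sgcb -0.07 to 0.01. The 6 members above WT stayed 6 under RLE, upper-quartile and unscaled totals. In the matrix list, 2 genes passed in DESeq2, 2 in DESeq2 without independent filtering and 2 in the likelihood ratio test (Lamb2 and Col4a1), 3 with no filter (these and Col4a2, named after its values were seen) and 1 with the replicate block (Lamb2). In the cytoskeletal list 2 passed with no filter (Ank2 and Actg1, the latter named after its values were seen) and 0 to 1 with each mouse left out. Over all genes, 67 calls became 318 in DESeq2, 309 without its independent filtering, 312 in the likelihood ratio test, 799 of 24621 with no filter, 23 of 12241 at 1 CPM, and 99 without WT replicate 1, 299 without WT replicate 2, 204 without Mef2dα2 Eko replicate 1 and 126 without Mef2dα2 Eko replicate 2. Where 1 mouse is left out, the lone mouse is assumed to vary like the other genotype. With the replicate number as a block, 186 genes passed and Dmd had an adjusted p of 0.130. The study describes the mice as littermates, but no source used here says which mice shared a litter or that a replicate number marks one, and the deviations of same-numbered mice correlated at 0.0909 over 2 pairs, so the numbers were not taken to pair the mice. With 2 mice per genotype, the SE of the 8 log2 fold changes was 0.06 to 0.13, and none of the 8 differences was detectable at the adjusted threshold in the test as reported.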
